A study of Arabidopsis thaliana with 24 samples.

Results

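Tetraploid seedlings differed from diploid ones in partly different sets of genes in Ler and Col-0, a pair of inbred accessions (ecotypes) of Arabidopsis thaliana. The comparison described here is the ecotype difference in this ploidy response, gene by gene. It is the log2 fold change of tetraploid over diploid Ler minus that of tetraploid over diploid Col-0. Its members are the 21361 gene identifiers written the same way in both deposited tables, out of 24900 identifiers listed in either. They were taken for that reason alone and not for their values.

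The groups were tetraploid Ler (4xLer), diploid Ler (2xLer), tetraploid Col-0 (4xCol) and diploid Col-0 (2xCol), with 2 RNA-seq libraries each, 8 of the 24 libraries of the series. The other libraries are chromatin immunoprecipitations against histone H3 and its K27 trimethylated form (H3K27me3) and were not analysed here. All seedlings were grown in soil at 22 °C and sampled whole at the age of 2 weeks, with days of 16 h or 8 h of light. Which day length applies to these libraries is not in the labels, nor is how many tetraploid lines were used or how they were made, so ploidy and line cannot be told apart. Libraries held 22138532 normalized reads on average in the Ler table and 22343366 in the Col-0 table. Leaf genes led the libraries: RBCS1A, a Rubisco small subunit, averaged 607604 in 4xLer and 630488 in 2xLer, against 562817 in 4xCol and 578894 in 2xCol. Of 6 leaf markers 1 differed between ecotypes in its response (16.7%, against 8.71% of all genes). Floral markers were low, with SEP3, a floral organ identity gene, at 18.1 in 4xLer and 14.6 in 2xLer, against 5.78 in 4xCol and 6.16 in 2xCol. The defining root hair genes RHD6 and EXPA7 were listed in neither table.

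Whole-genome duplication gives each cell an added copy of every chromosome, and established autotetraploids often have larger cells and organs. In Arabidopsis the transcript response to it is known to be modest and to depend on the accession. The study asked how ploidy relates to flowering time and H3K27me3 in these ecotypes, for which FLC, a MADS-box repressor of flowering marked by H3K27me3 when it is silenced by Polycomb proteins, is a central gene.

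Each level below is a mean normalized read count per library, implied from the authors' mean over 4 libraries and their fold change. Levels compare genes only with themselves, since they are not divided by gene length, and the Ler and Col-0 tables were normalized separately. Fold changes and their standard errors (±) are the authors'. The headers do not give the sign of a fold change, which was read as tetraploid over diploid because FLC and ESP are known to be higher and ESM1 lower in tetraploid than diploid Col-0 in this study, and every direction rests on that reading. For Ler no gene was used, and the sign rests on the parallel naming of both tables. A reversed sign in Ler would change every difference and the split into same and opposite responses. A positive difference means a more positive response in Ler. A gene is called at a Benjamini-Hochberg adjusted p under 0.05, from a two-sided Wald test of the difference over all 21361 genes. The labels do not describe replicates as separate cultures, and the spread that enters a p-value may therefore be technical only. Seedlings were sampled in bulk, so fewer cells of a type and less RNA per cell cannot be told apart.

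Of the 21361 genes, 1860 responded differently in the 2 ecotypes (8.71%). The response was higher in Ler for 1061 (4.97%) and lower in Ler for 799 (3.74%). A difference of at least 1 on the log2 scale was found in 854 of the called genes, 599 of them higher and 255 lower in Ler, and one of at least 3 in 236, 180 higher and 56 lower. In 1398 of the called genes (75.2%) the larger of both fold changes was the one in Col-0, and in 462 the one in Ler. Medians over all genes were near 0, at 0.01 for the difference, 0.00 for the Ler response and 0.00 for the Col-0 response.

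The responses resembled each other little across genes. Over 13324 genes averaging 100 or more reads in each table, Pearson's r between the fold changes of Ler and Col-0 was 0.105 and Spearman's rho 0.0756, a description across genes that share libraries and are not replicates. Among 332 genes that the authors' deposited tables called in both ecotypes, 213 moved the same way and 119 in opposite ways (r 0.115, rho 0.240 over these 332). Of the 1860 genes with a difference, 1280 (68.8%) were called by the authors in Col-0 alone, 551 of them higher and 729 lower in 4xCol. Another 252 (13.5%) were called in Ler alone, 159 higher and 93 lower in 4xLer. A further 34 were called in both with the same sign, 27 of them with the larger change in Col-0, and 175 in neither, each of those 175 with fold changes of opposite sign.

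A call in 1 ecotype often came without a call for the difference, which does not show equal responses. Of 2757 tested genes that the authors' deposited tables called in Col-0 alone, 1280 (46.4%) passed the test of the difference, and of 581 called in Ler alone, 252 (43.4%) did. The number of calls also followed depth. Calls were made for 1.58% of genes with a lower mean count under 10 and 6.81% of those between 10 and 100. The shares were 8.92% between 100 and 1000 and 18.0% above 1000. Shares of all genes set beside the gene lists below are not matched for depth. At a mean of at least 100 the median standard error was 0.152 in Ler and 0.150 in Col-0, so the precision of both tables was alike, and a difference of 0.61 was needed at the median standard error. The Wald statistics of the difference spread 1.25 times wider than the theoretical null, and scaled to their own spread (an empirical null) 939 genes passed, 549 higher and 390 lower in Ler. Against a null of a difference of up to 1 on the log2 scale 206 passed, 165 higher and 41 lower.

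**Figure D1:**
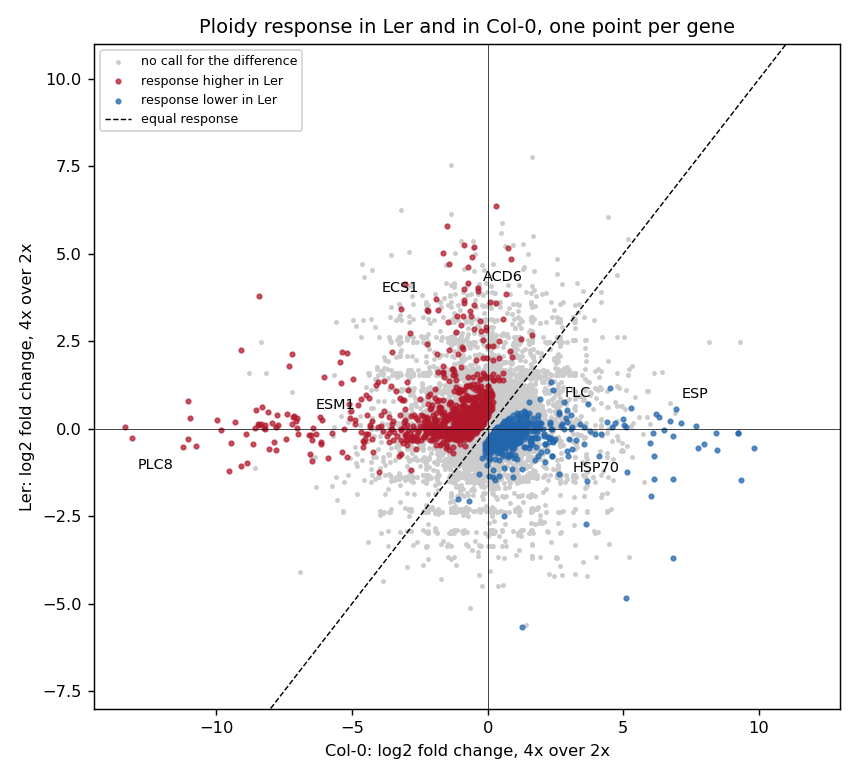
Each point is 1 of the 21361 genes, with the authors' log2 fold change of tetraploid over diploid Col-0 on the horizontal axis and of tetraploid over diploid Ler on the vertical axis; the dashed line marks equal responses. The 1061 genes with a response higher in Ler (red) and the 799 lower in Ler (blue) lie mostly near the horizontal axis, where Ler changed little.

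Genes that the authors called in both ecotypes with opposite signs all passed the test of the difference, which 2 such calls make nearly certain. There were 119 of them, 70 higher in 4xLer and lower in 4xCol and 49 the other way round, and 18 changed by at least 1 on the log2 scale in both ecotypes. ECS1, which encodes a small cell-wall protein first studied in resistance to Xanthomonas, had 2725 in 4xLer and 206 in 2xLer, against 5275 in 4xCol and 19707 in 2xCol. Its 2xLer level was the lowest and its 2xCol level the highest of the 4. In the authors' deposited tables ECS1 rose by 3.72 ± 0.26 in Ler and fell in Col-0 (−1.90 ± 0.17), a difference of 5.63 ± 0.31 (Wald test, adjusted p = 2.4e-70).

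ACD6, an ankyrin-repeat membrane protein that promotes salicylic acid defence, averaged 431 in 4xLer and 26.4 in 2xLer, against 2261 in 4xCol and 2912 in 2xCol. Only 2xLer was low: the other 3 groups lay at least an order of magnitude above it. The authors' deposited tables gave 4.03 ± 0.29 in Ler and −0.36 ± 0.11 in Col-0, and the difference was 4.39 ± 0.31 (Wald test, adjusted p = 1.6e-42). AT5G10760, also called AED1 and named for its dependence on the defence regulator EDS1, followed with 562 in 4xLer and 53.5 in 2xLer, against 147 in 4xCol and 518 in 2xCol. Its responses in the authors' deposited tables were 3.39 ± 0.24 in Ler and −1.82 ± 0.23 in Col-0, so that 4xLer and 2xCol were high and 2xLer and 4xCol low. The unnamed gene AT1G35710 had 526 in 4xLer and 73.2 in 2xLer, against 1007 in 4xCol and 1411 in 2xCol, and its difference was 3.33 ± 0.27 (Wald test, adjusted p = 1.0e-31).

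PPC3, NRT1.5 and FBA5 were lowest in 4xCol. PPC3, a phosphoenolpyruvate carboxylase, averaged 936 in 4xLer and 658 in 2xLer, against 56.3 in 4xCol and 788 in 2xCol, and the 4xCol level stood apart from the other 3. The difference for PPC3 was 4.32 ± 0.25 (Wald test, adjusted p = 2.7e-64), with 0.51 ± 0.13 in Ler and −3.81 ± 0.21 in Col-0 in the authors' deposited tables. NRT1.5, which loads nitrate into the xylem, had 698 in 4xLer and 430.0 in 2xLer, against 176 in 4xCol and 794 in 2xCol and a difference of 2.88 ± 0.22. FBA5, a fructose-bisphosphate aldolase, had 1486 in 4xLer and 1100.3 in 2xLer, against 777 in 4xCol and 2026 in 2xCol and a difference of 1.82 ± 0.15. For both genes 4xLer and 2xCol were the high groups.

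The reverse pattern, lower in 4xLer and higher in 4xCol, was led by HSP70, a chaperone gene described with the heat shock list below. DES1, a cysteine desulfhydrase that releases hydrogen sulfide, had 1574 in 4xLer and 2268 in 2xLer, against 1627 in 4xCol and 477 in 2xCol, and 2xCol was the low group. Its responses were −0.53 ± 0.10 in Ler and 1.77 ± 0.11 in Col-0 in the authors' deposited tables, a difference of −2.30 ± 0.15 (Wald test, adjusted p = 4.4e-49). CSLB03, a cellulose synthase-like gene, had 1131 in 4xLer and 1559 in 2xLer, against 2592 in 4xCol and 869 in 2xCol and a difference of −2.04 ± 0.17.

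**Figure D2:**
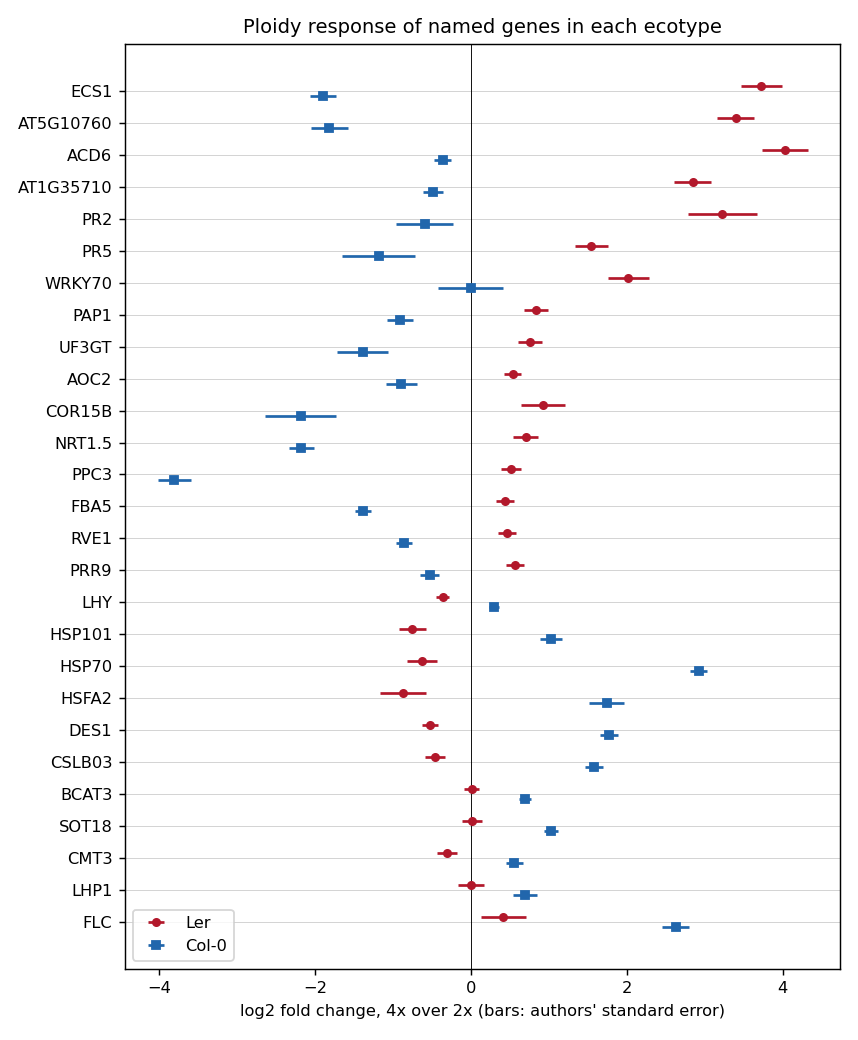
Log2 fold change of tetraploid over diploid (horizontal axis) for 27 named genes, with the authors' standard error as bars, for Ler (red circles) and Col-0 (blue squares). ECS1, AT5G10760 and ACD6 lie to the right in Ler and to the left in Col-0, HSP70 and DES1 the other way round, and FLC, SOT18 and BCAT3 stay near 0 in Ler.

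Salicylic acid, a defence hormone, is made through ICS1, signals through NPR1 and its relatives and switches on the pathogenesis-related (PR) genes. Of 25 tested members of this list, 10 differed between the ecotypes, all 10 higher in Ler, where the background is 4.97% of all genes, and the list's median difference was 1.52 against 0.01 over all genes. By the authors' deposited tables, 11 rose and 0 fell in Ler, and 1 rose and 2 fell in Col-0. Of genes with an authors' adjusted p, 3.08% rose and 1.92% fell in Ler, and 7.12% rose and 8.06% fell in Col-0. Those are 18272 genes in Ler and 20338 in Col-0, whereas list counts cover members without an adjusted p too. With the empirical null 5 of the 10 differences remained. The lists here, like all lists of this text, were put together with earlier results of these data known.

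Among regulators, WRKY70, a transcription factor of salicylic acid responses, averaged 247 in 4xLer and 61.0 in 2xLer, against 1057 in 4xCol and 1061 in 2xCol. Of the 4 groups 2xLer was the lowest. Its response was 2.02 ± 0.26 in Ler and −0.01 ± 0.41 in Col-0 in the authors' deposited tables, a difference of 2.02 ± 0.49 (Wald test, adjusted p = 9.8e-04). SARD1, which activates ICS1, had 84.5 in 4xLer and 9.59 in 2xLer, against 397 in 4xCol and 266 in 2xCol (difference 2.56 ± 0.74, Wald adjusted p = 0.009). Its close relative CBP60G (difference 2.80 ± 0.94), WRKY54 (1.61 ± 0.56) and the salicylic acid exporter EDS5 (1.52 ± 0.52) were also called. ICS1 itself had 352 in 4xLer and 284 in 2xLer, against 646 in 4xCol and 564 in 2xCol, with no call for the difference (0.12 ± 0.25, Wald adjusted p = 0.927, 95% interval −0.38 to 0.61).

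Output genes were called too. PR2, a beta-1,3-glucanase, averaged 801 in 4xLer and 85.7 in 2xLer, against 655 in 4xCol and 987 in 2xCol, so that 2xLer again lay below the rest. The authors' deposited tables gave 3.22 ± 0.45 in Ler and −0.59 ± 0.37 in Col-0, with a difference of 3.82 ± 0.58 (Wald test, adjusted p = 4.0e-09). PR5, a thaumatin-like protein, had 474 in 4xLer and 162 in 2xLer, against 747 in 4xCol and 1702 in 2xCol, and its difference was 2.73 ± 0.51 (Wald test, adjusted p = 5.0e-06). PR1, the classical marker of the pathway, had 105 in 4xLer and 2.86 in 2xLer, against 1571 in 4xCol and 2248 in 2xCol. Its standard errors were wide, and the difference was 5.71 ± 1.45 (Wald test, adjusted p = 0.0019). LURP1, a gene induced by oomycete infection, was the remaining call, at 1.40 ± 0.45. SAG13, a marker of senescence that defence also induces, moved with these genes: it had 16.1 in 4xLer and 1.94 in 2xLer, against 409 in 4xCol and 1121 in 2xCol and a difference of 4.51 ± 1.37 (Wald test, adjusted p = 0.0155). The other senescence marker tested, ORE1, gave 0.34 ± 1.41. Whether senescence has a part in the defence values was not tested.

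Jasmonate, the wound hormone, is made from linolenic acid by lipoxygenases, allene oxide synthase and allene oxide cyclases. Of 20 tested genes of its synthesis and signalling, 3 differed (15%, against 8.71% of all genes), all higher in Ler, where 4.97% of all genes were, with a list median of 0.17. All 3 are synthesis genes. AOC2, an allene oxide cyclase, averaged 2107 in 4xLer and 1457 in 2xLer, against 296 in 4xCol and 551 in 2xCol (difference 1.43 ± 0.23, Wald adjusted p = 4.1e-08). Its relative AOC4 had 511 in 4xLer and 285 in 2xLer, against 246 in 4xCol and 403 in 2xCol, and both cyclase genes were called by the authors in both ecotypes with opposite signs. LOX6, a lipoxygenase, differed by 1.25 ± 0.23. The allene oxide synthase AOS (0.36 ± 0.15) and the signalling genes JAZ1 (0.03 ± 0.52), JAZ10 (−0.90 ± 0.46) and MYC2 (0.02 ± 0.17) were not called. Members called by the authors' deposited tables were 5 rising and 0 falling in Ler, and 6 rising and 3 falling in Col-0. Among genes with an authors' adjusted p the shares were 3.08% and 1.92% in Ler, and 7.12% and 8.06% in Col-0.

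Abscisic acid and cold-response genes, which protect cells from drying and freezing, gave 8 differences among 24 tested members (33.3%, against 8.71% of all genes). Of these, 6 were higher in Ler, against 4.97% of all genes, and 2 lower, against 3.74%, with a list median of 0.59. Ler had 14 members higher in the tetraploid and 0 lower in the authors' deposited tables, and Col-0 had 6 higher and 3 lower, set against the same shares as for the jasmonate list. COR15B, a chloroplast protein that stabilises membranes in the cold, averaged 167 in 4xLer and 87.9 in 2xLer, against 20.1 in 4xCol and 91.3 in 2xCol. The 4xCol level was the low one, and the response was 0.93 ± 0.28 in Ler and −2.18 ± 0.45 in Col-0 in the authors' deposited tables (difference 3.11 ± 0.54, Wald adjusted p = 4.4e-07). KIN2, another cold-induced gene, had 1858 in 4xLer and 1511 in 2xLer, against 873 in 4xCol and 1761 in 2xCol and a difference of 1.31 ± 0.14. PP2CA, a phosphatase that restrains abscisic acid signalling, had 1709 in 4xLer and 825 in 2xLer, against 674 in 4xCol and 695 in 2xCol, with the change in Ler this time (difference 1.10 ± 0.17, Wald adjusted p = 1.4e-08). The remaining calls higher in Ler were RD26 (1.45 ± 0.38), LEA14 (0.65 ± 0.20) and ERD10 (0.79 ± 0.28).

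Against that direction, P5CS1, the proline synthesis enzyme of stressed plants, had 5935 in 4xLer and 4413 in 2xLer, against 4116 in 4xCol and 1585 in 2xCol. It rose in both ecotypes and by more in Col-0, with 0.43 ± 0.10 in Ler and 1.38 ± 0.09 in Col-0 in the authors' deposited tables, a difference of −0.95 ± 0.13 (Wald test, adjusted p = 1.4e-10). HAB1, a phosphatase of the same kind as PP2CA, differed by −0.47 ± 0.14. With the empirical null 4 of the 8 differences of this list remained.

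Anthocyanins, purple flavonoids, are made by late enzymes such as DFR, LDOX and UF3GT under the MYB activator PAP1 and the bHLH factor TT8. Of 22 tested members, 9 differed (40.9%, against 8.71% of all genes), 8 higher and 1 lower in Ler, while the list median was 0.14. PAP1 averaged 580.0 in 4xLer and 325 in 2xLer, against 351 in 4xCol and 661 in 2xCol, and it rose in Ler (0.84 ± 0.15) and fell in Col-0 (−0.91 ± 0.17) in the authors' deposited tables. Its difference was 1.75 ± 0.23 (Wald test, adjusted p = 3.7e-12). UF3GT, which adds a sugar to the pigment, had 762 in 4xLer and 451 in 2xLer, against 319 in 4xCol and 834 in 2xCol and a difference of 2.14 ± 0.36 (Wald test, adjusted p = 1.7e-07). TT7, the flavonoid 3'-hydroxylase, differed by 1.29 ± 0.20.

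DFR (1.63 ± 0.34), LDOX (1.23 ± 0.32), TT8 (1.29 ± 0.32) and the transport protein TT19 (0.79 ± 0.16) were called on the same side. The acyltransferase AT5MAT was not called (0.85 ± 0.31, Wald adjusted p = 0.0645). MYBL2, a repressor of the pathway, was also higher in Ler in its response (1.82 ± 0.36, Wald adjusted p = 1.6e-05), with 173 in 4xLer and 153 in 2xLer, against 94.0 in 4xCol and 293 in 2xCol. The call lower in Ler was EGL3, a bHLH relative of TT8, at −0.88 ± 0.26. Of the enzymes before DFR, TT7 was called, while the chalcone synthase TT4 (0.17 ± 0.11), TT5 (0.04 ± 0.13) and F3H (−0.27 ± 0.10) were not, nor was the flavonol synthase FLS1 (0.03 ± 0.11). With the empirical null 7 of the 9 differences remained.

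Glucosinolates, sulfur-rich defence compounds of the cabbage family, gave the list with the highest share of calls, 61.1% for the aliphatic kind. The aliphatic kind is built from methionine by chain elongation (MAM1, BCAT4, IPMI1, IMD1), a core pathway (CYP79F1, CYP79F2, CYP83A1, SOT18) and side-chain oxidation (FMO GS-OX1), under the activators MYB28, MYB29 and MYB76. Of 18 tested members, 11 differed, all lower in Ler, where the background is 3.74%, and the list median was −1.10 against 0.01 over all genes. Ler had 1 rising and 0 falling by the authors' deposited tables, and Col-0 had 15 rising and 0 falling. Over genes with an authors' adjusted p, 3.08% rose and 1.92% fell in Ler, and 7.12% rose and 8.06% fell in Col-0. Ler and Col-0 are known to differ in the genes and side chains of this pathway. MAM1 had few reads in Ler, with 12.6 in 4xLer and 21.7 in 2xLer, against 9879 in 4xCol and 2755 in 2xCol. Its Ler response, and so its difference, rests on those few reads. What part gene content has in this was not tested.

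SOT18, which adds the final sulfate, averaged 1572 in 4xLer and 1553 in 2xLer, against 2455 in 4xCol and 1208 in 2xCol. The authors' deposited tables gave 0.02 ± 0.13 in Ler and 1.02 ± 0.09 in Col-0 (difference −1.01 ± 0.16, Wald adjusted p = 1.9e-08). BAT5, the plastid transporter of chain elongation, had 436 in 4xLer and 464 in 2xLer, against 1979 in 4xCol and 929.9 in 2xCol and a difference of −1.18 ± 0.19. FMO GS-OX1 differed by −1.15 ± 0.19 and BCAT3, an aminotransferase of chain elongation, by −0.69 ± 0.12. The other calls were MAM1 (−2.62 ± 0.76), CYP79F1 (−1.68 ± 0.38), BCAT4 (−1.58 ± 0.40), IPMI1 (−1.38 ± 0.36), IMD1 (−1.23 ± 0.35), CYP79F2 (−1.06 ± 0.36) and CYP83A1 (−0.80 ± 0.23).

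No activator of the aliphatic branch was called. MYB28 had 2771 in 4xLer and 2842 in 2xLer, against 2577 in 4xCol and 2246 in 2xCol, with no call for the difference (−0.23 ± 0.13, Wald adjusted p = 0.361), and MYB29 gave 0.25 ± 0.23. MYB76 rose in Col-0 in the authors' deposited table (1.61 ± 0.30), but its difference of −1.47 ± 0.54 missed the threshold (Wald test, adjusted p = 0.0672). Several Ler standard errors in this list were wide for the level, such as 0.10 ± 0.37 for CYP79F1 in the authors' deposited table, and with the empirical null 7 of the 11 differences remained.

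Indole glucosinolates are made from tryptophan. Of 13 tested genes of their synthesis 5 differed (38.5%, against 8.71% of all genes), all lower in Ler, where 3.74% of all genes were. The list median was −0.51, and 3 of the 5 differences remained with the empirical null. GSTF9, a glutathione transferase, averaged 10054 in 4xLer and 7054 in 2xLer, against 18654 in 4xCol and 7353 in 2xCol and rose in both ecotypes, by 0.51 ± 0.11 in Ler and 1.34 ± 0.07 in Col-0 in the authors' deposited tables (difference −0.83 ± 0.13, Wald adjusted p = 9.9e-09). UGT74B1 (−0.75 ± 0.15), SUR1 (−0.66 ± 0.15) and GGP1 (−0.51 ± 0.16), enzymes that the indole and aliphatic branches share, were called too. MYB34, an activator of the indole branch, differed by −0.62 ± 0.16 (Wald adjusted p = 0.0035), a call lost with the empirical null (adjusted p = 0.0523). The enzymes specific to tryptophan, CYP79B2 (−0.54 ± 0.36) and CYP79B3 (−0.20 ± 0.20), were not called.

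Glucosinolates are broken down by myrosinases, and specifier proteins decide which product forms. ESP, the epithiospecifier protein, had the largest statistic of all genes: it averaged 48260.0 in 4xLer and 32266 in 2xLer, against 64546 in 4xCol and 524 in 2xCol. Only 2xCol was low. In the authors' deposited tables ESP rose by 0.58 ± 0.11 in Ler and by 6.94 ± 0.07 in Col-0, a difference of −6.36 ± 0.13 and a Wald statistic of −50.35. ESM1, which opposes ESP, had 900.3 in 4xLer and 855 in 2xLer, against 992 in 4xCol and 15073 in 2xCol. Here 2xCol was the high group, and 4xCol lay close to both Ler groups. Its difference was 4.00 ± 0.15 (Wald test, adjusted p = 6.1e-157), with 0.08 ± 0.13 in Ler and −3.93 ± 0.07 in Col-0 in the authors' deposited tables. The Col-0 directions of ESP and ESM1 served to read the sign of the tables and are not separate results.

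Of the 13 tested breakdown genes, 6 differed (46.2%, against 8.71% of all genes), 4 higher and 2 lower in Ler, with a median of 0.35. The myrosinase-binding proteins MBP1 and MBP2 differed by 2.10 ± 0.37 and 6.37 ± 1.34. MBP1 had 329 in 4xLer and 312 in 2xLer, against 66.2 in 4xCol and 269 in 2xCol. MBP2 was at low counts, with 12.98 in 4xLer and 4.86 in 2xLer, against 2.12 in 4xCol and 65.57 in 2xCol. The size of the MBP2 difference rests on few reads. Alternatives asking for a mean or implied reads of at least 10 left MBP2 out of the test. The beta-glucosidase PYK10, mostly a root protein, had 3147 in 4xLer and 2457 in 2xLer, against 2314 in 4xCol and 3541 in 2xCol and a difference of 0.97 ± 0.28. PYK10 is also 1 of the 3 root markers tested, and the others, WER (−0.70 ± 1.45) and PRX72 (1.03 ± 1.16), were low and not called, so a part of root content in its value was not tested. The nitrile specifier NSP4 was the second gene lower in Ler, at −0.96 ± 0.21. Myrosinase genes gave no call: TGG1 differed by 0.36 ± 0.26 and TGG2 by −0.24 ± 0.30. TGG2 had 101 in 4xLer and 111 in 2xLer, against 24178 in 4xCol and 22458 in 2xCol.

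**Figure D3:**
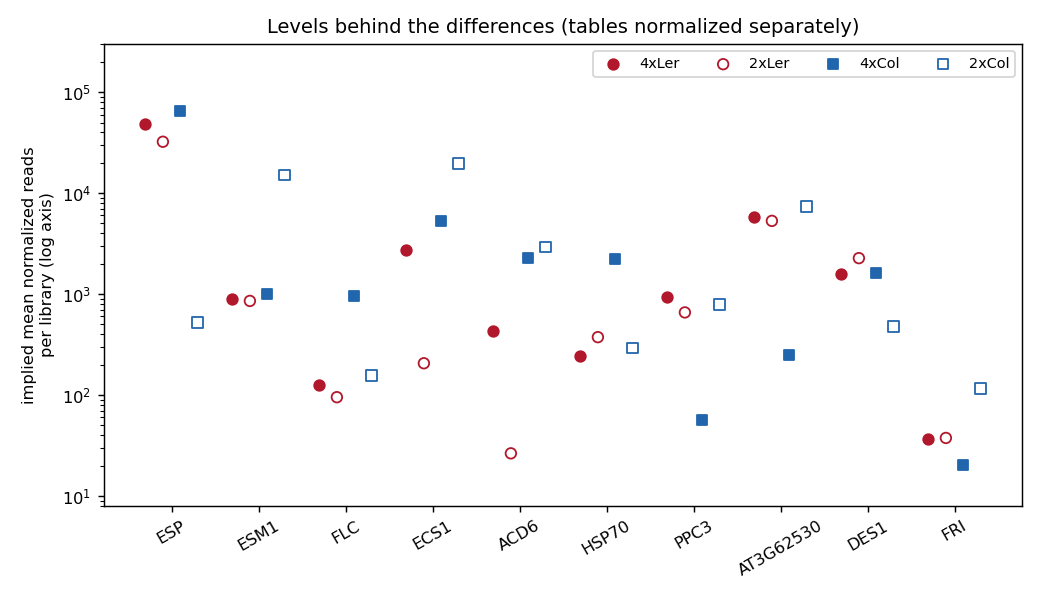
Implied mean normalized reads per library (logarithmic vertical axis) for 10 named genes, as points without error bars because per-library values were not used, in 4xLer and 2xLer (red, filled and open) and 4xCol and 2xCol (blue, filled and open). For ESP, ESM1 and FLC 1 Col-0 group stands apart from the other 3 groups, and for ECS1 and ACD6 2xLer lies lowest.

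Flowering genes differed singly. FLC averaged 127 in 4xLer and 95.1 in 2xLer, against 964 in 4xCol and 156 in 2xCol, so that 4xCol stood alone and 2xCol was near both Ler groups. In the authors' deposited tables its response was 0.41 ± 0.29 in Ler, without a call, and 2.63 ± 0.17 in Col-0, and the difference was −2.21 ± 0.34 (Wald test, adjusted p = 7.5e-09). In linear terms, FLC was 1.33-fold in Ler and 6.17-fold in Col-0. The Col-0 direction served to read the sign of the tables and is not a separate result. The relatives MAF1 (−0.25 ± 0.20), MAF2 (−0.13 ± 0.20), MAF3 (−0.16 ± 0.25), MAF4 (−0.34 ± 0.68) and MAF5 (1.93 ± 0.97) and the partner SVP (0.44 ± 0.18) gave no call for the difference, MAF4 and MAF5 at low counts.

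Among 20 tested floral repressors 5 differed (25%, against 8.71% of all genes), 2 higher and 3 lower in Ler, with a median of 0.03. SMZ and SNZ, AP2-like repressors of FT, differed by −0.74 ± 0.20 and −0.54 ± 0.15, and both calls were lost with the empirical null (adjusted p = 0.0562 and 0.0753). SMZ had 645 in 4xLer and 715 in 2xLer, against 894 in 4xCol and 594 in 2xCol. On the other side CDF3, a DOF repressor of CO, had 1744 in 4xLer and 1183 in 2xLer, against 1186 in 4xCol and 1309 in 2xCol and a difference of 0.70 ± 0.15 (Wald test, adjusted p = 2.1e-04). Its relative CDF1 differed by 0.42 ± 0.15. FRI, the activator of FLC, had 36.5 in 4xLer and 37.5 in 2xLer, against 20.1 in 4xCol and 115 in 2xCol; Ler and Col-0 are both known to carry FRI alleles of reduced function. Its difference was 2.48 ± 0.64 (Wald test, adjusted p = 0.0026), and with the empirical null the adjusted p was 0.0511.

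Of 18 tested floral promoters 3 differed (16.7%, against 8.71% of all genes), all higher in Ler, where 4.97% of all genes were, with a median of 0.53. AGL24, a MADS-box promoter of flowering, averaged 75.3 in 4xLer and 57.5 in 2xLer, against 37.5 in 4xCol and 205 in 2xCol, with 2xCol as the high group. Its response was 0.39 ± 0.36 in Ler and −2.45 ± 0.32 in Col-0 in the authors' deposited tables (difference 2.84 ± 0.48, Wald adjusted p = 2.6e-07). SOC1, a direct target of FLC, had 304 in 4xLer and 267 in 2xLer, against 109 in 4xCol and 195 in 2xCol, and it fell in Col-0 with −0.84 ± 0.27 in the authors' deposited table against 0.19 ± 0.19 in Ler. The difference for SOC1 was 1.03 ± 0.32 (Wald test, adjusted p = 0.0223) and that for SPL4, a target of miR156, 2.82 ± 0.88 (adjusted p = 0.0189). With the empirical null SOC1 and SPL4 lost the call (adjusted p = 0.174 and 0.16). FT, the mobile signal, was low, at 11.9 in 4xLer and 9.98 in 2xLer, against 5.24 in 4xCol and 9.05 in 2xCol, and was not called (1.05 ± 1.48), nor was its activator CO (0.14 ± 0.67).

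Polycomb genes gave 1 call among 16 tested members (6.25%, near the 8.71% of all genes). It was LHP1, which reads H3K27me3, with 398 in 4xLer and 398 in 2xLer, against 615 in 4xCol and 381 in 2xCol. Its difference was −0.69 ± 0.23 (Wald test, adjusted p = 0.0305), lost with the empirical null (adjusted p = 0.188). The methyltransferase genes CLF (−0.02 ± 0.23) and SWN (−0.36 ± 0.17) and the complex member EMF2 (−0.23 ± 0.20) were not called, with 95% intervals of −0.47 to 0.44 for CLF, −0.70 to −0.03 for SWN and −0.62 to 0.15 for EMF2. For CLF the sign turned when each table was centred on its own median. In DNA methylation and silencing, 3 of 31 tested genes differed (9.68%, near the 8.71% of all genes), all lower in Ler, with a median of −0.21: CMT3, the CHG methyltransferase (−0.86 ± 0.17, 789 in 4xLer and 977 in 2xLer, against 1323 in 4xCol and 899.6 in 2xCol), NRPE1, the large subunit of RNA polymerase V (−1.09 ± 0.24), and the chromatin remodeller CLSY1 (−1.11 ± 0.32). CLSY1 lost the call with the empirical null (adjusted p = 0.0934).

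Heat shock genes were lower in Ler in every case that was called. Heat shock factors switch on chaperones that refold or dissolve damaged proteins. Of 15 tested members 6 differed (40%), all lower in Ler, where 3.74% of all genes were, with a list median of −0.85, and all 6 remained with the empirical null. Ler had 0 rising and 2 falling by the authors' deposited tables, and Col-0 had 6 rising and 0 falling. The shares of genes with an authors' adjusted p were 3.08% rising and 1.92% falling in Ler, and 7.12% rising and 8.06% falling in Col-0. HSP70, here the gene AT3G12580, averaged 241 in 4xLer and 374 in 2xLer, against 2214 in 4xCol and 293 in 2xCol, and 4xCol stood well above the other groups. Its response was −0.63 ± 0.19 in Ler and 2.92 ± 0.11 in Col-0 in the authors' deposited tables (difference −3.55 ± 0.22, Wald adjusted p = 2.0e-53).

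HSP101, the disaggregase, had 259.7 in 4xLer and 438 in 2xLer, against 828 in 4xCol and 407 in 2xCol and was also called in both tables with opposite signs (difference −1.78 ± 0.23). The factor HSFA2 had 79.1 in 4xLer and 145 in 2xLer, against 326 in 4xCol and 97.9 in 2xCol and a difference of −2.62 ± 0.37 (Wald test, adjusted p = 2.5e-10). HSP81-2, a cytosolic HSP90, differed by −0.58 ± 0.11, the coactivator MBF1C by −1.43 ± 0.27 and the repressor HSFB2B by −0.85 ± 0.22. Small heat shock genes were near the limit of counting: HSP17.6A had 1.08 in 4xLer and 0.937 in 2xLer, against 10.5 in 4xCol and 1.39 in 2xCol and no call. HSP18.2 (−0.25 ± 0.59) and the constitutive factor HSFA1A (−0.19 ± 0.37) were not called either.

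Iron-deficiency genes take up and move iron when it is scarce. Of 14 tested members of the iron-deficiency list, 10 rose in Ler and 8 in Col-0 by the authors' deposited tables, with none falling. The rising shares among genes with an authors' adjusted p were 3.08% in Ler and 7.12% in Col-0. Of the 14, 3 differed between the ecotypes (21.4%, against 8.71% of all genes) and the median difference was 0.09. OPT3, which moves iron into the phloem, had 15925 in 4xLer and 10041 in 2xLer, against 9612 in 4xCol and 8490.5 in 2xCol and a difference of 0.49 ± 0.11 (Wald test, adjusted p = 6.7e-04). FRO3, a mitochondrial ferric reductase, differed by 0.80 ± 0.24 and PYE, a bHLH regulator, by −0.65 ± 0.20, and both calls were lost with the empirical null (adjusted p = 0.119 and 0.122). BHLH38, a bHLH factor of iron uptake, rose in both ecotypes, with 890.1 in 4xLer and 231 in 2xLer, against 388 in 4xCol and 18.1 in 2xCol, and its difference of −2.48 ± 0.93 was not called (adjusted p = 0.0745).

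Shared responses without a difference call numbered 179 of the 213 same-sign genes, 97 higher and 82 lower in both tetraploids. FER1, the iron store ferritin, was the strongest, with 387 in 4xLer and 1099 in 2xLer, against 1325 in 4xCol and 3302 in 2xCol. Its responses were −1.51 ± 0.14 in Ler and −1.32 ± 0.09 in Col-0 in the authors' deposited tables, with a difference of −0.19 ± 0.17 (95% interval −0.52 to 0.15). HEMA1, which opens chlorophyll synthesis, had 6711 in 4xLer and 11237 in 2xLer, against 11208 in 4xCol and 19275 in 2xCol, and the 95% interval of its difference was −0.17 to 0.25. Intervals were −0.28 to 0.14 for ADC1, an arginine decarboxylase, −0.46 to 0.03 for the B-box factor BBX15 and −0.54 to 0.22 for AT5G05250. The first 4 fell and AT5G05250 rose in both ecotypes.

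Clock genes differed in 5 of 21 tested cases (23.8%, against 8.71% of all genes), 3 higher and 2 lower in Ler, with a median of 0.07. RVE1, a morning factor that links the clock to auxin, averaged 1332 in 4xLer and 966 in 2xLer, against 806 in 4xCol and 1464 in 2xCol, with 0.46 ± 0.11 in Ler and −0.86 ± 0.11 in Col-0 in the authors' deposited tables (difference 1.33 ± 0.16, Wald adjusted p = 5.0e-15). PRR9, a morning repressor, had 1734 in 4xLer and 1176 in 2xLer, against 689 in 4xCol and 995 in 2xCol and a difference of 1.09 ± 0.17, and PRR7, its relative, 0.78 ± 0.19. LHY, a core morning factor, went the other way (−0.66 ± 0.10, 23124 in 4xLer and 29779 in 2xLer, against 22436 in 4xCol and 18331 in 2xCol), as did RVE8 (−0.41 ± 0.13). CCA1, the partner of LHY, was not called (−0.32 ± 0.12, adjusted p = 0.0643), nor was TOC1 (0.32 ± 0.26). The sources used here do not give the hour of sampling, and its part in these values was not tested.

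Photosynthesis genes had a median difference of −0.01 over 35 tested members. Of these, 8 were called (22.9%, against 8.71% of all genes), 5 higher and 3 lower in Ler. Among all genes with a lower mean count above 1000, 18.0% were called. PETE2, the main plastocyanin, had 71855 in 4xLer and 76818 in 2xLer, against 33135 in 4xCol and 70136 in 2xCol, with 4xCol as the low group (difference 0.99 ± 0.10, Wald adjusted p = 1.6e-22). Light-harvesting copies diverged: LHCB2.1 had 47726 in 4xLer and 36302 in 2xLer, against 33457 in 4xCol and 59572 in 2xCol and a difference of 1.23 ± 0.12, whereas its neighbour LHCB2.2 gave −0.40 ± 0.10. Likewise CAB2, of the same LHCB1 family, gave 0.54 ± 0.10 and LHCB1.2 −0.50 ± 0.10. These are near-identical copies whose reads the counting could split, so the values of single copies are uncertain. The remaining calls were LHCB1.3 (0.27 ± 0.09), RBCS2B (0.33 ± 0.09) and LHCA1 (−0.32 ± 0.10).

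Lignin synthesis gave 3 differences among 17 tested genes, where 8.71% of all genes were called, 2 higher and 1 lower in Ler. COMT1, a methyltransferase of the syringyl branch, had 1683 in 4xLer and 1673 in 2xLer, against 3686 in 4xCol and 6115 in 2xCol and a difference of 0.74 ± 0.14 (Wald test, adjusted p = 1.6e-05). FAH1, which acts in the same branch, differed by 0.32 ± 0.11 (with the empirical null, adjusted p = 0.259). 4CL3, a ligase of the flavonoid side, gave −0.45 ± 0.11. CESA5 was the 1 call among 10 cellulose synthases (−0.42 ± 0.11), a share of 10% and near that of all genes.

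Genes of replication and the cell cycle, the machinery that copies the doubled genome, showed 1 difference among 35 tested members, or 2.86% against the 8.71% of all genes. That gene was the mitotic cyclin CYCB1;2 (−0.64 ± 0.20, Wald adjusted p = 0.0163), lost with the empirical null (adjusted p = 0.13). The list median was −0.19, and 5 of the 35 had a difference above 0. MCM2, a helicase subunit, gave −0.41 ± 0.17, and the kinase gene CDKA;1 −0.19 ± 0.17. The authors' deposited tables gave 0 rising and 1 falling in Ler, and 4 rising and 0 falling in Col-0. Of genes with an authors' adjusted p, 3.08% rose and 1.92% fell in Ler, and 7.12% rose and 8.06% fell in Col-0.

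Of 15 genes often used as references, 3 differed (20%, against 8.71% of all genes), all higher in Ler, where 4.97% of all genes were. All 3 had mean counts above 1000 in both ecotypes, a class in which 18.0% of genes were called. UBQ10, a polyubiquitin gene, averaged 8932 in 4xLer and 7685 in 2xLer, against 7058 in 4xCol and 13322 in 2xCol, and UBQ11 5266 in 4xLer and 3856 in 2xLer, against 3436 in 4xCol and 6220.1 in 2xCol. Their differences were 1.13 ± 0.10 and 1.31 ± 0.12, and as they are near-identical the division of reads between them is uncertain. The actin gene ACT8 differed by 0.42 ± 0.13 (Wald adjusted p = 0.0265), which the empirical null ended (adjusted p = 0.194). GAPC2 (0.10 ± 0.09), TUB4 (0.06 ± 0.11) and UBC21 (−0.02 ± 0.21) were not called.

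**Figure D4:**
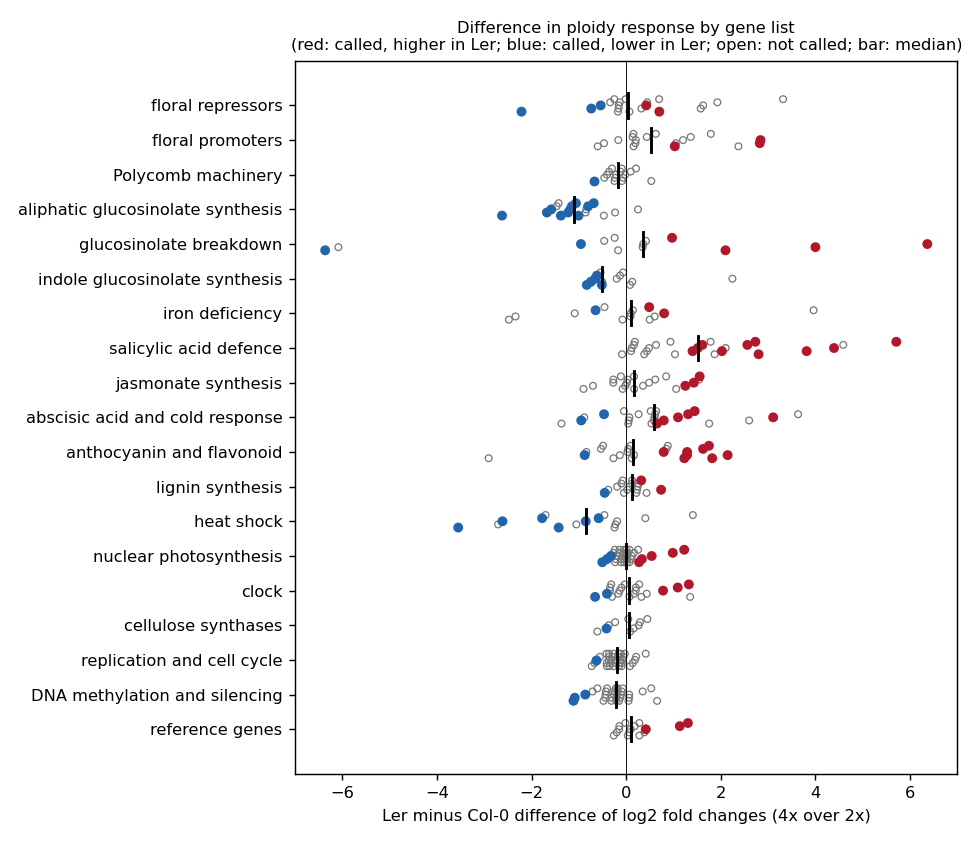
Difference of log2 fold changes, Ler minus Col-0 (horizontal axis), for every tested member of 19 gene lists; filled points passed the test (red higher, blue lower in Ler), open points did not, and black bars are list medians. The aliphatic glucosinolate and heat shock calls all lie left of 0, and the salicylic acid calls all lie right of it. Medians over all tested members of these lists, called or not, are −1.10, −0.85 and 1.52.

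Some of the highest differences belonged to genes without reads in 1 Col-0 group. Among called genes, 3 lacked reads in 4xLer and 4 in 2xLer, against 42 in 4xCol and 19 in 2xCol. A group lacked reads where its implied total was under 0.5. The numbers among all tested genes are not given here, so these counts describe called genes only, most of which changed more in Col-0. Fitted fold changes of genes lacking reads are not bounds, so folds are set against 3 counts for the whole group. PLC8, a phospholipase C, had 1465 reads per library in 4xLer and 1753 in 2xLer, against none in 4xCol and 1693 in 2xCol, and was at least 1129-fold lower in 4xCol than in 2xCol. AT3G47250, near PLC8 on chromosome 3, had 798 in 4xLer and 774 in 2xLer, against none in 4xCol and 2033 in 2xCol, and was at least 1355-fold lower in 4xCol. The lower bounds on the same fold were 258 for AT1G23960, 223 for AT2G31150 and 129.8 for AT4G14905. All 5 genes had reads in both Ler groups and in 2xCol.

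In the other direction, 4 called genes lacked reads in 1 group at a mean of at least 100 in 1 of the tables. AT1G27570 was at least 68.7-fold higher in 4xCol than in 2xCol, AT5G17100 at least 68.2-fold and AT4G04402 at least 104-fold. AT5G17090, next to AT5G17100 in the gene order of the assembly TAIR10.1, was at least 9.05-fold higher, and its call was lost with the empirical null (adjusted p = 0.139). All 4 had reads in both Ler groups. Seed markers were at low counts. The oil body protein genes OLEO1 (−7.94 ± 2.75, Wald adjusted p = 0.0457) and OLEO2 (−9.94 ± 2.90, Wald adjusted p = 0.0108) were called lower in Ler. OLEO1 lacked reads in 2xCol and OLEO2 in 4xLer, and neither call held with the empirical null. The other tested seed markers, CRA1 and EM1, were not called (Wald adjusted p = 0.879 and 0.781).

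Among genes with reads in all 4 groups and a mean of at least 100 in both tables, 4xCol was the lowest group for 7 of the 10 genes with the highest differences, and 2xLer for the other 3, ECS1, AT5G10760 and ACD6. LpxC3, a gene of lipid A synthesis, had 3987 in 4xLer and 5159 in 2xLer, against 20.3 in 4xCol and 4710.5 in 2xCol (difference 7.48 ± 0.71). LpxC2, a near-identical copy, had 579.6 in 4xLer and 1013 in 2xLer, against 21.7 in 4xCol and 782 in 2xCol. Division of reads between these copies is uncertain. AT3G62530 averaged 5825 in 4xLer and 5306 in 2xLer, against 248 in 4xCol and 7322 in 2xCol, with a difference of 5.02 ± 0.13 and a Wald statistic of 39.05. EXLB1, an expansin-like gene, had 209 in 4xLer and 81.4 in 2xLer, against 17.0 in 4xCol and 241 in 2xCol, and it rose in Ler by 1.36 ± 0.27 on the log2 scale in the authors' deposited table. Of the 7, PPC3 also rose in Ler. NPQ6, a gene of nonphotochemical quenching, differed by 4.45 ± 0.46 and the thionin THI2.2 by 4.35 ± 0.41.

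The 10 lowest differences included ESP and HSP70 and 8 genes without a symbol. AT2G01021 had 1500.2 in 4xLer and 3556 in 2xLer, against 1872 in 4xCol and 53.1 in 2xCol, with wide errors (difference −6.38 ± 0.95). AT3G18535 had 373 in 4xLer and 341 in 2xLer, against 1346 in 4xCol and 126 in 2xCol (difference −3.29 ± 0.22). AT1G27540 had 6281 in 4xLer and 5488 in 2xLer, against 3040.1 in 4xCol and 405 in 2xCol (difference −2.71 ± 0.14). For these 3 genes 2xCol was the lowest group. Differences of the remaining 5 ran between −3.32 ± 0.32 for AT2G25964 and −2.67 ± 0.46 for AT5G26280. Where the authors called both ecotypes with the same sign, the strongest differences after ESP were in AT1G24996 (2774 in 4xLer and 4010.0 in 2xLer, against 1.59 in 4xCol and 3767 in 2xCol; 4xCol at about the value of 3 reads), LpxC3, ADT4, an arogenate dehydratase (1.14 ± 0.15), and GH3.9, an auxin-conjugating enzyme relative (2.49 ± 0.34).

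Differing genes lay on every chromosome, at 9.84% of tested genes on chromosome 1, 8.24% on 2, 8.25% on 3, 8.93% on 4 and 8.01% on 5. In 424 windows of 50 neighbouring tested genes, in the gene order of TAIR10.1, the median share called was 8% and the highest 30%. That window runs from AT3G42630 to AT3G44150 on chromosome 3 and held 15 differing genes, 6 higher and 9 lower in Ler. Of its genes, 1 was called in Ler and 14 in Col-0 by the authors' deposited tables. A window on chromosome 1 from AT1G24400 to AT1G25280 held 13, 11 of them higher in Ler, with 3 genes called in Ler and 18 in Col-0 by the authors' deposited tables. LpxC2 and LpxC3 lie in it, and reads shared between such copies could be counted in several of these genes.

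Another 3 windows held 12 differing genes each, and 8 windows held none. The longest unbroken runs of differing genes were 5 genes long. One spans AT1G27520 to AT1G27580 and contains AT1G27540, AT1G27570 and AT1G27580, all 3 with a response lower in Ler, beside 2 that were higher. The other spans AT2G04940 to AT2G05120 and contains LHCB2.2 and LHCB2.1. No window had more than 8 genes called in Ler by the authors' deposited table.

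**Figure D5:**
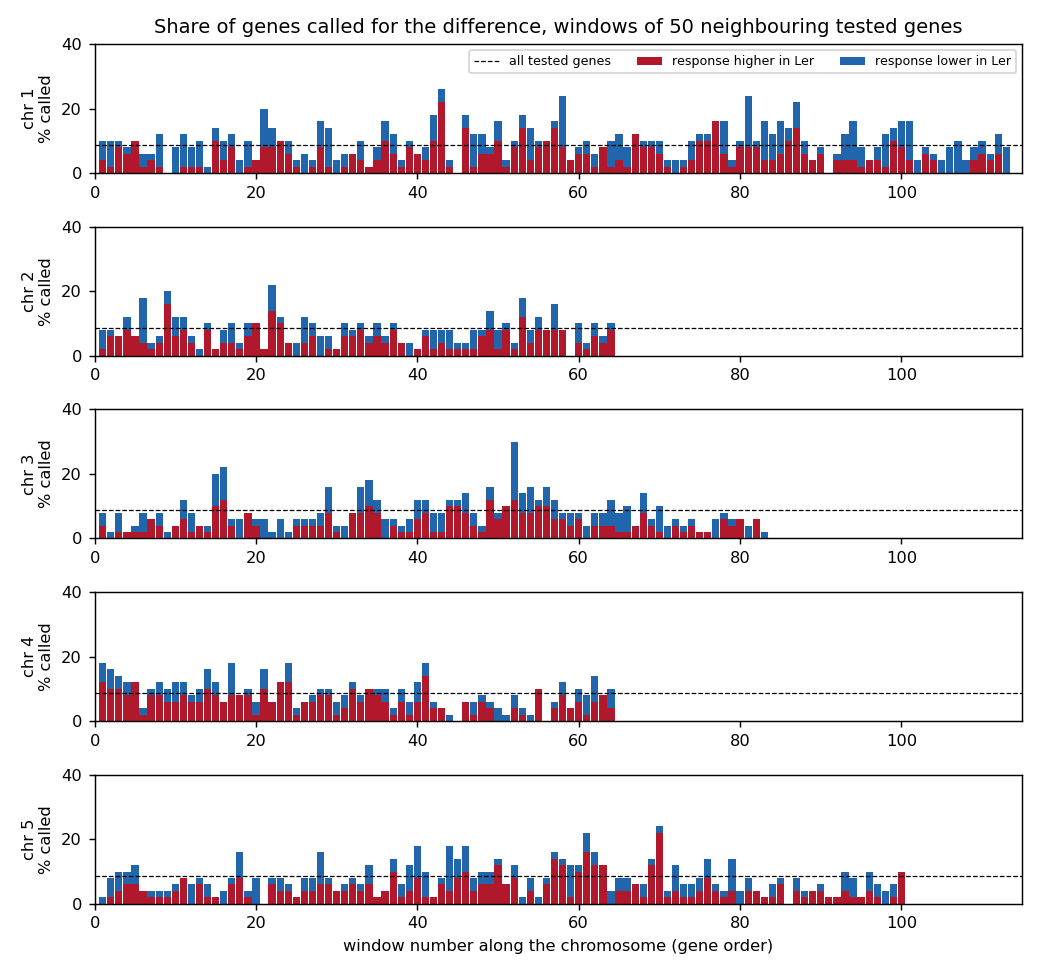
Share of tested genes whose response differed (vertical axis, percent), in windows of 50 neighbouring tested genes in gene order along chromosomes 1 to 5 (horizontal axis, window number); red parts were higher and blue parts lower in Ler, and the dashed line is the 8.71% of all genes. The tallest bar, at 30%, is the window from AT3G42630 to AT3G44150 on chromosome 3.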

How the data were processed

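RNA-seq of whole seedlings was used from 8 libraries, 2 per ecotype and ploidy. Per the labels' protocols, poly(A) RNA was used and a NEBNext Ultra kit prepared the libraries. HISAT2, Subread, DESeq2 and the build TAIR10 appear in the submitters' processing notes, without versions or roles, and the sources used here do not give the strand setting of the counting.

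The authors deposited 1 table of comparisons per ecotype. Per the file headers, each holds a mean normalized count (a signal averaged by the authors over 4 libraries), the authors' log2 fold change and its standard error, the Wald statistic (a score without fixed range, deposited beside them) and the deposited p-value with its adjusted value. Values per library were not used here, so the test compares the deposited estimates, and no replicate could be left out or paired.

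From these, Python 3.11.15 (pandas 2.3.3, numpy 2.4.6, scipy 1.17.1; figures with matplotlib 3.10.9) computed Ler minus Col-0, its standard error as the root of the summed squares, a two-sided Wald p and Benjamini-Hochberg adjustment over 21361 genes. The script was tested on simulated data. Precision follows the depth of 22138532 (Ler) and 22343366 (Col-0) normalized reads per library on average. Names and gene order came from RefSeq genes of the assembly TAIR10.1 (99.8% of identifiers matched), whose coordinates were not used because its name differs from that of the authors' build. A group was said to lack reads under 0.5 implied reads, and its fold was bounded with 3 counts over the group; bounds cover counting error only.

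Named genes are the 10 highest and 10 lowest differences with a mean of at least 100 in both tables and at least 10 implied reads in each ploidy, the genes of highest mean count without reads in 1 group (up to 5 per direction, with a mean of at least 100 in 1 table), the 10 strongest with opposite calls, the 5 strongest with the same call, the 5 strongest shared responses, up to 4 called members of each of 19 gene lists, and a fixed set of flowering and Polycomb genes. Further list members are named to complete a list's count. Members and lists were chosen with earlier results of these data known. Alternatives were recentring, a mean of at least 10, an adjusted p in both tables, an empirical null, a null of a difference of up to 1, and at least 10 implied reads.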

Additional observations from a re-analysis of the deposited data

Results flagged for a closer look

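The ploidy response differed between the ecotypes in 1860 genes by the Wald test of the difference itself. Genes that the authors' deposited tables called in both ecotypes with opposite signs were singled out for the size of that difference. Higher in Ler were ECS1 (5.63 on the log2 scale), AT5G10760 (5.21), ACD6 (4.39), PPC3 (4.32), AT1G35710 (3.33), NRT1.5 (2.88) and FBA5 (1.82). Lower in Ler were HSP70 (−3.55), DES1 (−2.30) and CSLB03 (−2.04).

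Identifiers listed in 1 table only stand outside the comparison and were noted for carrying calls. For Ler, the authors' deposited table held 1698 that the Col-0 table lacks, 39 of them called among 411 with an adjusted p, 33 higher and 6 lower in 4xLer. For Col-0, the authors' deposited table held 1841 that the Ler table lacks, 177 of them organelle genes, with 201 called among 1082, 78 higher and 123 lower in 4xCol.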

How the results depend on the processing

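Recentring each table gave 1845 differing genes (1770 of them among the 1860), a mean of at least 10 gave 1882, genes with an authors' adjusted p in each table gave 1902 and at least 10 implied reads 1756. The empirical null gave 939, 549 higher and 390 lower in Ler: 699 called by the authors in Col-0 only, 102 in Ler only, 18 in both with the same sign, 119 in both with opposite signs and 1 in neither. The null of a difference of up to 1 gave 206, 165 higher and 41 lower: 158 in Col-0 only, 10 in Ler only, 5 with the same sign, 33 with opposite signs and 0 in neither. Both tests are stricter by construction. The 112 named genes include some without a call for the difference, such as FER1, MAF1 and CLF, which had none to lose. With the empirical null 14 named genes lost the call, and 54 did with the null of up to 1. None lost it with the other alternatives that kept them in the test. The difference of CLF, −0.02, became 0.00406 after recentring (adjusted p = 0.999); the cause was not tested. No paired analysis was possible because the tables hold 1 estimate per ecotype and no values per replicate, and no replicate could be left out for the same reason. Genes of low count limit the comparison: under a lower mean count of 10 the median standard error of the difference was 2.98.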

Other observations

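Vascular and guard cell markers gave no call for the ecotype difference. XCP1, a protease of xylem vessels, had a mean of 346 in 4xLer and 214 in 2xLer, against 305 in 4xCol and 257 in 2xCol normalized reads (difference 0.44 ± 0.32), and XCP2 gave 0.40 ± 0.53. The phloem factor APL gave −0.06 ± 0.22. Among guard cell genes, FAMA differed by 0.01 ± 0.21, HT1 by 0.32 ± 0.60 and MYB60 by 0.00 ± 0.25. Trichome genes gave no call either, with −0.63 ± 0.69 for GL1, −0.45 ± 0.34 for GL2 and 0.56 ± 0.31 for TTG2. The 95% intervals ran over −0.41 to 0.42 for FAMA, −0.50 to 0.49 for MYB60 and −1.12 to 0.23 for GL2. Differences within these intervals remain possible, and the missing calls do not show equal responses.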
